A study of Mus musculus with 24 samples.

Results

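The genes described here make, sense, store and export cholesterol. They were taken by symbol from a fixed list of 31: 18 enzymes of synthesis, 5 regulators, 5 genes of efflux and its nuclear receptors, and 3 genes of storage, transport and uptake. A row was present for 28 of the 31, that is 15 synthesis genes and all members of the other lists, among 23930 amplicons in the whole table. Fdps, Acat2 and Idi1 were not analysed here. All 28 passed the filter on low values (at least 1 RPM, reads of an amplicon scaled to the same total in every library, in at least 4 libraries), so no count below leaves out a measured member.

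Splenic monocytes of untreated C57BL/6 mice were sorted into Ly6Chi and Ly6Clow subsets, and 4 libraries were made for each subset from each of 3 genotypes, giving 24 libraries in 6 groups. The genotypes were WT, Slc29a3-/-, which lacks the lysosomal nucleoside transporter SLC29A3, and Slc29a3-/- Tlr7-/-, which lacks the endosomal RNA sensor TLR7 as well. The Slc29a3 allele carries an inserted stop codon and the Tlr7 allele a short deletion, both made by genome editing and present in every cell of the mouse, and the WT mice were purchased. The labels call the cells macrophages, give them as CD11b+ Ly6G- SiglecF- NK1.1-, and do not give ages or say that the 4 libraries of a group came from 4 mice, so P values measure the spread between libraries. The amplicons of the mutated genes were still read in mutant libraries. In Ly6Chi, Slc29a3 was at 127 to 173 RPM in Slc29a3-/- and 194 to 413 RPM in Slc29a3-/- Tlr7-/- libraries. Its Ly6Chi WT range was 163 to 225 RPM. Tlr7 was at 259 to 345 RPM in Ly6Chi Slc29a3-/- Tlr7-/- libraries against 210 to 336 RPM in WT. In Ly6Chi Slc29a3-/- libraries, where Tlr7 is not mutated, it was at 111 to 227 RPM. These levels therefore do not check the labels.

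Cholesterol is built from acetyl-CoA through mevalonate, squalene and lanosterol by a chain of enzymes of the cytosol, endoplasmic reticulum and peroxisome. When sterol in the endoplasmic reticulum is low, SCAP carries the transcription factor SREBP2 (Srebf2) to the Golgi for cleavage, and it then raises transcription of the enzyme genes. When sterol is high, INSIG proteins hold SCAP back, and oxysterols activate the liver X receptors LXRα (Nr1h3) and LXRβ (Nr1h2), which raise transcription of the exporters Abca1 and Abcg1, of Apoe, and of Mylip. Macrophages that clear dead cells take in much cholesterol and are known for strong use of the export arm.

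Some short motifs, but not all, were more common in the promoters of the synthesis genes than in the 4 efflux promoters searched. The 250 bases before the transcription start were taken from RefSeq (GRCm38.p6, the mm10 build) for 24 of the 28 members, all but Abcg1, Fdft1, Sqle and Stard4, and searched on both strands. The NF-Y box CCAAT stood in 13 of 13 synthesis promoters, 4 of 5 regulator promoters and 0 of 4 efflux promoters (Abca1, Apoe, Nr1h2 and Nr1h3), against 37.5% of 27025 genes. The Sp1 box GGGCGG stood in 12 of 13, 5 of 5 and 1 of 4, against 35.4% of genes. The sterol element TCACNCCAC was found in Hmgcs1 alone among the 24, against 1.22% of genes, and the E-box CACGTG in Hsd17b7, Sc5d, Dhcr7, Scap, Insig1 and Abca1, against 6.86%. The E-box share was 23.1% of synthesis and 25% of efflux promoters. With 4 efflux promoters, their counts are too small to set apart from the share of all genes. No member held the LXR direct repeat with a spacer of 4 in this window, and 0.226% of genes did. None of these letter strings contains another. A match is a description of the sequence, and the absence of one says only that these letters are not in this window.

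Windows are shown for Hmgcs1 and Sc5d of synthesis, Insig1 of the regulators, and Abca1 and Apoe of efflux, to let the motifs of the lists be compared; Insig1, Abca1 and Apoe were called between genotypes, Sc5d between subsets, and Hmgcs1, the member with the sterol element, in no comparison. They lie at chr13:119690101-119690350 on the plus strand (Hmgcs1), chr9:42264301-42264550 on the minus strand (Sc5d), chr5:28071162-28071362 on the plus strand (Insig1, 201 bases, ending where the annotated gene begins), chr4:53159896-53160145 on the minus strand (Abca1) and chr7:19699189-19699438 on the minus strand (Apoe, the most upstream of 3 starts). Capitals mark the sterol element, E-box and NF-Y box, each on either strand, so that an NF-Y box can read ATTGG.
Hmgcs1: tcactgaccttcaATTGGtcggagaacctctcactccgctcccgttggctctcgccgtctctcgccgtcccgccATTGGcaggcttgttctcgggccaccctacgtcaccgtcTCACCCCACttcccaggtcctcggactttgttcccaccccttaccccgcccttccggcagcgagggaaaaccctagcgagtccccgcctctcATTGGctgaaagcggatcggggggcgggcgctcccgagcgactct
Sc5d: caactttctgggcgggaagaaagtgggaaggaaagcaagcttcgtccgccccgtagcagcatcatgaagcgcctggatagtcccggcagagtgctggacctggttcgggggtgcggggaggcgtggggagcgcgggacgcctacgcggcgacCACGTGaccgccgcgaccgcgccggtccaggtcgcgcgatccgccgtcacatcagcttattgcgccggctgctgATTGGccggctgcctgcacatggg
Insig1: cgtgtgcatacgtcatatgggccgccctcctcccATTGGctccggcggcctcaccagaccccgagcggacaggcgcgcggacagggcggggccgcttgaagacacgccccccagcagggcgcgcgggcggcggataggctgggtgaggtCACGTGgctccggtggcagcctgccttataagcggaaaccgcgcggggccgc
Abca1: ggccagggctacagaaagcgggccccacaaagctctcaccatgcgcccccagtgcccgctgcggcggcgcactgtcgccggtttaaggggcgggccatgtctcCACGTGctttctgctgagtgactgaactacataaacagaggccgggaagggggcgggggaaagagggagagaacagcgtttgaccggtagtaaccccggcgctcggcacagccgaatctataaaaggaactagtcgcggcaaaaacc
Apoe: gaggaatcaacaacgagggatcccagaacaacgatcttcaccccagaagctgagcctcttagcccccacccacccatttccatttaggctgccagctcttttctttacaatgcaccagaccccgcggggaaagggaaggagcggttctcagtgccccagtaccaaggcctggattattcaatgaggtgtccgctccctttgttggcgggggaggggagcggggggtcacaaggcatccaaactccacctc
In Hmgcs1, which makes HMG-CoA at the head of the pathway, the sterol element lay 137 to 129 bases before the start, between NF-Y boxes. The Abca1 window held an E-box and no NF-Y box, and the Apoe window held none of the marked motifs.

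The subset labels held: the 4 measured markers of Ly6Chi monocytes summed to 2319 to 6768 RPM in Ly6Chi libraries and 13.6 to 269 RPM in Ly6Clow libraries, and 7 markers of Ly6Clow monocytes to 549 to 2488 and 5564 to 10237 RPM. The depth inferred from the size of the smallest RPM step was 12.3 to 14.6 M reads per library, so that 3 reads are worth 0.206 to 0.244 RPM. WT replicates 1 to 3 of each subset carried barcodes 11 to 16 and were deeper (14.2 to 14.6 M) than the other 18 libraries, which carried barcodes 24 to 46 (12.3 to 13.05 M). WT replicate 4 stood apart from them: its Euclidean distance on the log2 scale over the genes tested was at least 63.7 in Ly6Chi and 67.4 in Ly6Clow, against at most 24.3 and 44.4 among replicates 1 to 3. Genotype comparisons with WT are therefore also given with replicate 4 as the WT group alone, and the comparison of Slc29a3-/- with Slc29a3-/- Tlr7-/- holds no WT library. A gene was called when limma's adjusted P was under 0.05 and its fold change over 1.5, on log2(RPM + 1), a scale that understates the change of low genes. Members have 1 amplicon each, so RPM were compared between libraries and not between genes.

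In Ly6Chi monocytes the efflux genes Abca1 and Apoe fell in Slc29a3-/- mice, while the synthesis genes were not called in either direction. Of 28 members, 4 were called between Slc29a3-/- and WT, 1 higher and 3 lower, where 22.4% of all genes tested were called, 861 higher and 1507 lower. After TMM scaling, which moves the median of all genes from -0.14 to -0.02 on the log2 scale, the split was 1163 and 1162 and the member count was the same. The median log2 fold change of the 15 synthesis genes was -0.01 and that of the 5 efflux genes -0.27, beside -0.14 over all genes. A larger share of all genes than of members was called in this comparison, which is a difference in counts only. In bulk libraries, fewer cells of a type and less RNA per cell cannot be told apart.

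Abca1 (chr4:53030787-53159895) encodes the transporter that loads cholesterol and phospholipid onto lipid-poor apolipoprotein A-I. It was at 31.6, 27.5, 32.6 and 26.9 RPM in the 4 Ly6Chi WT libraries, at 12.3, 14.9, 17.4 and 7.15 RPM in Slc29a3-/-, and at 27.8, 47.8, 29.6 and 17.2 RPM in Slc29a3-/- Tlr7-/-. Every Slc29a3-/- library was below every WT library, and its highest value, 17.4 RPM, passed only the lowest Slc29a3-/- Tlr7-/- library. Abca1 was 2.29-fold lower in Slc29a3-/- than in WT (log2 fold change -1.19, SE 0.28, limma adjusted P = 0.0067) and 2.23-fold lower than in Slc29a3-/- Tlr7-/- (-1.16, SE 0.28, adjusted P = 0.01). Between Slc29a3-/- Tlr7-/- and WT the log2 difference was -0.04, with a 95% interval of -0.64 to 0.57. Against WT replicate 4 alone the log2 fold change of Slc29a3-/- was -1.07 with an adjusted P of 0.33, a value near that with all WT libraries in a setting where calls over all genes went from 2368 to 156. The call against WT was kept without any single library (log2 -1.35 to -0.96), and that against Slc29a3-/- Tlr7-/- under each of 17 alternative settings.

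Apoe (chr7:19696109-19699188) encodes apolipoprotein E, a secreted acceptor that carries exported cholesterol. Ly6Chi WT libraries held 64.4, 64.6, 63.7 and 94.3 RPM, Slc29a3-/- libraries 30.1, 33.8, 27.8 and 24.7 RPM, and Slc29a3-/- Tlr7-/- libraries 68.9, 73.7, 76.4 and 48.9 RPM. The Slc29a3-/- values did not overlap with either other group. Apoe was 2.40-fold lower in Slc29a3-/- than in WT (log2 fold change -1.26, SE 0.18, adjusted P = 0.00033) and 2.24-fold lower than in Slc29a3-/- Tlr7-/- (-1.16, SE 0.18, adjusted P = 0.00049). Both calls were kept under each alternative setting, 18 and 17 in number, including WT replicate 4 alone (-1.67, adjusted P = 0.024).

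The other efflux genes were not called among Ly6Chi genotypes. Abcg1, which exports cholesterol to mature high-density lipoprotein, was at 107 to 119 RPM in WT, 62.4 to 116 RPM in Slc29a3-/- and 113 to 161 RPM in Slc29a3-/- Tlr7-/-, with a log2 difference of -0.27 (95% interval -0.65 to 0.12) between Slc29a3-/- and WT. Nr1h2 lay between 36.0 and 65.1 RPM in all 12 libraries. Nr1h3 was at 9.52 to 12.3 RPM in WT, 8.89 to 22.4 RPM in Slc29a3-/- and 11.5 to 20.1 RPM in Slc29a3-/- Tlr7-/-. Between Slc29a3-/- and WT the log2 difference was 0.01 (95% interval -0.39 to 0.40) for Nr1h2 and 0.43 (-0.09 to 0.96) for Nr1h3.

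**Figure D1:**
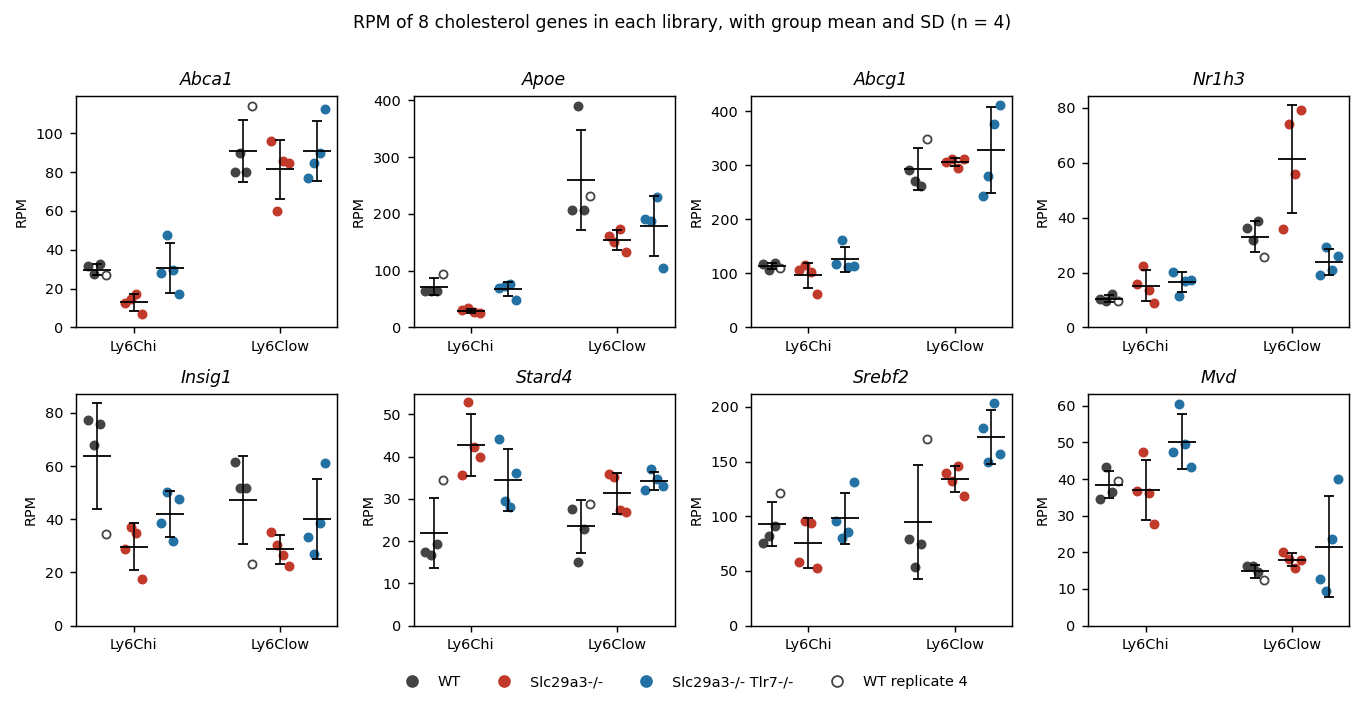
RPM of 8 member genes in each library, by subset (horizontal axis) and genotype (colour), with the group mean and SD as bars (n = 4) and WT replicate 4 drawn open. Abca1 and Apoe of Ly6Chi Slc29a3-/- libraries lie below all Ly6Chi WT libraries, and Abca1, Apoe, Abcg1 and Nr1h3 lie higher in Ly6Clow than in Ly6Chi WT libraries.

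Among the regulators, Insig1 was called in Ly6Chi monocytes. INSIG1, which retains SCAP in the endoplasmic reticulum and whose gene is itself a known SREBP target, had 77.3, 68.1, 75.7 and 34.6 RPM in WT, 28.7, 37.2, 34.97 and 17.6 RPM in Slc29a3-/-, and 38.5, 50.4, 31.8 and 47.7 RPM in Slc29a3-/- Tlr7-/-. WT replicates 1 to 3 were above all other Ly6Chi libraries, and WT replicate 4 fell within the range of Slc29a3-/-. The gene (chr5:28071363-28078662) was 2.10-fold lower in Slc29a3-/- than in WT (log2 fold change -1.07, SE 0.27, adjusted P = 0.01), but the log2 difference was -0.27 (adjusted P = 0.77) against WT replicate 4 alone and -0.52 (95% interval -1.10 to 0.06) against Slc29a3-/- Tlr7-/-. The sum of 11 immediate early genes also varied among these libraries. It was 1167 RPM in the lowest and 14919 RPM in the highest Ly6Chi WT library. In Slc29a3-/- the sum was 606 to 862 RPM and in Slc29a3-/- Tlr7-/- 1072 to 2796 RPM. Its part in the Insig1 result was not tested.

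Srebf1, Srebf2, Scap and Insig2 were not called in any comparison of Ly6Chi genotypes. Srebf2, the factor that drives the synthesis genes, was at 75.9 to 122 RPM in WT, 52.7 to 95.8 RPM in Slc29a3-/- and 79.8 to 131 RPM in Slc29a3-/- Tlr7-/-. Srebf1, whose products act mainly on fatty acid genes, was at 38.4 to 65.9 RPM over the 12 libraries. Scap, the escort protein, was at 16.5 to 25.2 RPM, and Insig2 at 7.55 to 15.4 RPM.

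No synthesis gene was called in any of the 6 comparisons of genotypes, so 0 of 15 in each. For Slc29a3-/- against WT, Slc29a3-/- Tlr7-/- against WT, and Slc29a3-/- against Slc29a3-/- Tlr7-/-, the shares of all genes called were 22.4%, 1.42% and 17.2% in Ly6Chi. In Ly6Clow they were 4.43%, 8.31% and 1.93%. Where few of all genes were called, 0 of 15 says little about the synthesis genes. Between Ly6Chi Slc29a3-/- and WT, 6 of the 15 log2 differences were above 0 and 9 below, and none had an unadjusted P under 0.05. Lss, which closes squalene epoxide into lanosterol, had the lowest value at -0.67 (95% interval -1.39 to 0.05), and Hsd17b7, a 3-keto reductase of sterol demethylation, the highest at 0.38 (-0.61 to 1.37). Narrower intervals were those of other enzymes, -0.07 (-0.43 to 0.29) for Mvd, which makes isopentenyl diphosphate, -0.01 (-0.38 to 0.37) for Sc5d, a late desaturase, and -0.10 (-0.48 to 0.27) for Dhcr7, the last reductase of the chain. Between Slc29a3-/- and Slc29a3-/- Tlr7-/-, Lss (-0.89, adjusted P = 0.078) and Mvd (-0.44, adjusted P = 0.075) had unadjusted P values under 0.05 and missed the threshold. In that comparison 17.2% of all genes (951 higher and 868 lower, or 1067 and 647 after TMM scaling, with a median of -0.12 or -0.03) and 2 of 28 members, Abca1 and Apoe, were called.

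**Figure D2:**
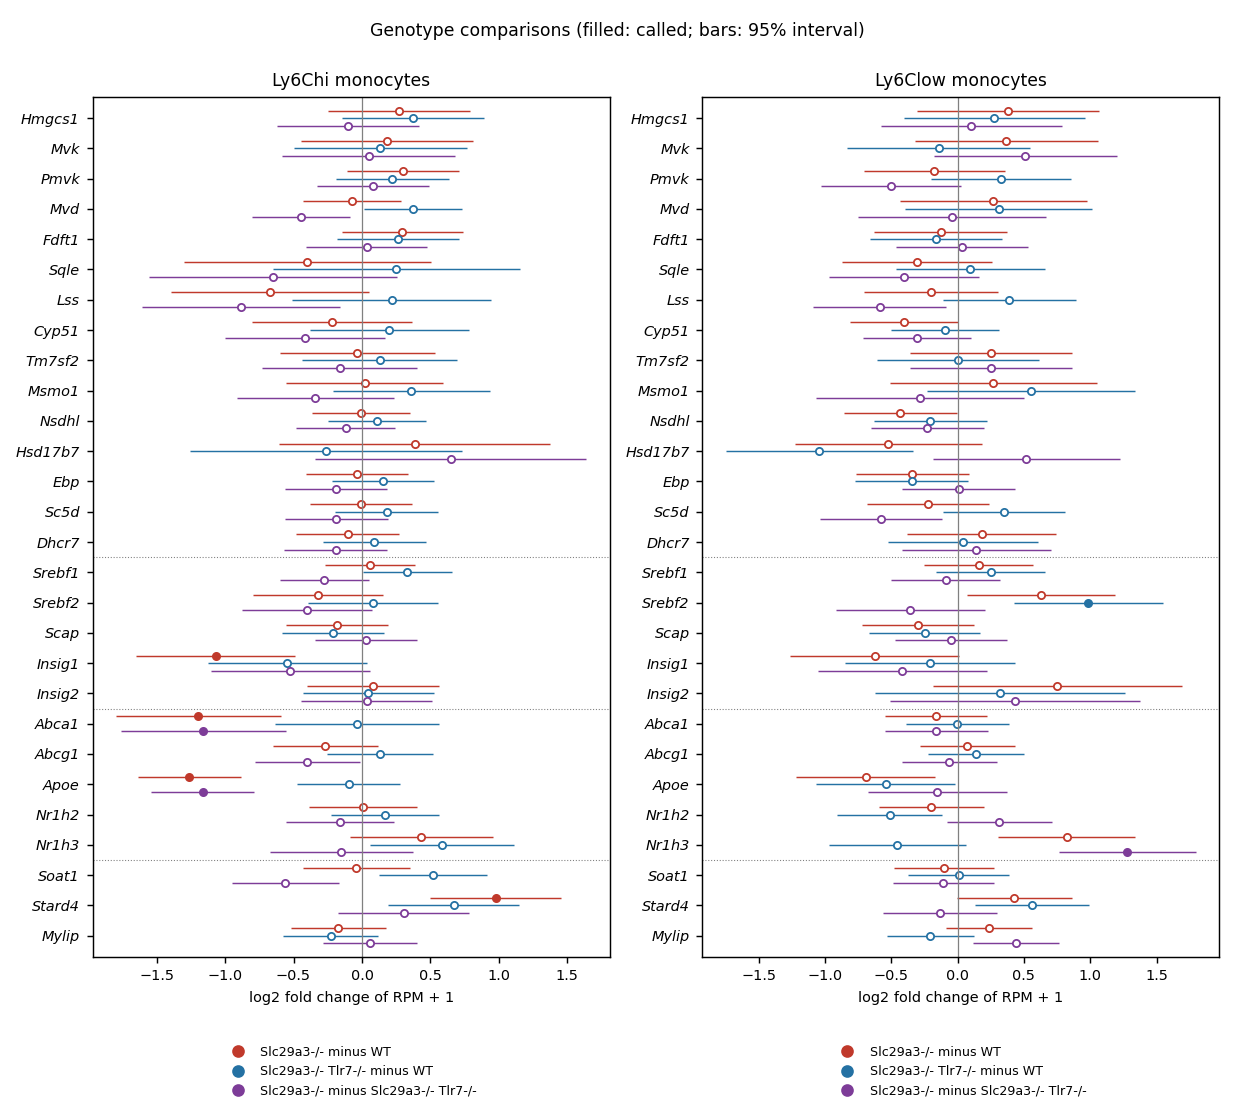
Log2 fold change of RPM + 1 (horizontal axis) for each of the 28 members (rows, grouped by dotted lines into synthesis, regulators, efflux, and storage, transport and uptake) in Ly6Chi and Ly6Clow monocytes. Points are limma estimates, filled where called, with 95% intervals, and colours are the 3 genotype comparisons. The filled points are Insig1, Abca1, Apoe and Stard4 in Ly6Chi and Srebf2 and Nr1h3 in Ly6Clow.

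Stard4, a soluble carrier that moves sterol between membranes and is a known SREBP2 target, was the member that rose. Ly6Chi WT libraries held 17.4, 16.7, 19.3 and 34.4 RPM, Slc29a3-/- libraries 35.7, 52.9, 42.3 and 39.9 RPM, and Slc29a3-/- Tlr7-/- libraries 44.2, 29.6, 28.2 and 36.1 RPM. The lowest Slc29a3-/- library was above the highest WT library, which was WT replicate 4. The gene was 1.97-fold higher in Slc29a3-/- than in WT (log2 fold change 0.98, SE 0.22, adjusted P = 0.0058). The log2 difference was 0.29 (adjusted P = 0.68) against WT replicate 4 alone, and 0.31 (95% interval -0.17 to 0.78) against Slc29a3-/- Tlr7-/-. Soat1, which esterifies cholesterol for storage in droplets, was at 127 to 169 RPM in WT, 95.3 to 177 RPM in Slc29a3-/- and 168 to 235 RPM in Slc29a3-/- Tlr7-/-; its log2 difference of -0.56 between the mutants had an adjusted P of 0.044 and missed the fold threshold. Mylip, a ubiquitin ligase that promotes the degradation of lipoprotein receptors, was at 27.2 to 45.8 RPM over the 12 libraries and was not called.

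No member was called between Slc29a3-/- Tlr7-/- and WT Ly6Chi monocytes: 0 of 28 by limma, where 1.42% of all genes were called (33 higher and 117 lower, or 95 and 115 after TMM scaling), and 5 members had an unadjusted P under 0.05 (Mvd, Srebf1, Nr1h3, Stard4 and Soat1, all with a log2 difference above 0). The largest of these was 0.67 for Stard4 (adjusted P = 0.11). Of the 15 synthesis genes 14 had a log2 difference above 0, with a median of 0.20 beside -0.06 over all genes.

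Markers of other cell types also differed between the Ly6Chi genotypes, and not all of them followed the pattern of Abca1 and Apoe. The 7 markers of Ly6Clow monocytes summed to 1114 to 2488 RPM in WT and 549 to 1611 RPM in Slc29a3-/-. In Slc29a3-/- Tlr7-/- they summed to 1229 to 2373 RPM. Of these 7 markers 2 were called higher and 1 lower between Slc29a3-/- and WT. The summed level of 13 neutrophil genes was 25566 to 34733 RPM in WT, 78241 to 144189 RPM in Slc29a3-/- and 14160 to 41386 RPM in Slc29a3-/- Tlr7-/-, and between Slc29a3-/- and WT 9 of the 13 were called higher and 2 lower. For 8 progenitor genes the sums were 372 to 471, 876 to 2905 and 386 to 958 RPM, with 5 called higher and 1 lower between Slc29a3-/- and WT, and for 16 proliferation genes 783 to 1244, 2071 to 3566 and 635 to 1025 RPM, with 15 higher. The 5 genes of conventional dendritic cells summed to 75.7 to 102, 15.1 to 36.8 and 86.3 to 110 RPM, and 3 of plasmacytoid dendritic cells to 35.02 to 73.2, 6.11 to 9.31 and 30.1 to 35.3 RPM, and all 8 were called lower in Slc29a3-/- than in WT. The 9 genes of red pulp macrophages summed to 366 to 419, 322 to 438 and 357 to 1114 RPM. C1qa among them was at 0 in all 4 Ly6Chi Slc29a3-/- libraries and in all 4 Ly6Clow Slc29a3-/- Tlr7-/- libraries. It did not pass the filter on low values in Ly6Chi, so its zeros there are not read as a loss. Although the red pulp sums overlapped, 3 of the 7 red pulp genes tested were called lower in Slc29a3-/- than in WT: C1qb (log2 fold change -1.99, adjusted P = 0.00019), Cd163 (-1.87, adjusted P = 0.00061) and Mrc1 (-1.73, adjusted P = 0.00022). The other 4 had a log2 difference above 0 and were not called, and the median of the 7 was 0.005. Against Slc29a3-/- Tlr7-/- C1qb (-1.35, adjusted P = 0.0021) and Mrc1 (-1.48, adjusted P = 0.00053) were lower and Slc40a1 (1.46, adjusted P = 0.0069) higher. The 5 T cell genes (39.3 to 127, 5.79 to 11.9 and 16.7 to 45.4 RPM) and 3 NK cell genes (92.1 to 389, 17.2 to 33.8 and 5.199 to 578 RPM) were lower in Slc29a3-/- than in WT, with 5 of 5 and 3 of 3 called. Of 10 immediate early genes tested, 9 were called lower in Slc29a3-/- than in WT. The part of these cell types and genes in the Abca1, Apoe, Insig1 and Stard4 results was not tested.

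The contrast of the arms can be read per library as the mean log2(RPM + 1) of the 15 synthesis genes minus that of Abca1, Abcg1 and Apoe. In Ly6Chi libraries it was -1.67 ± 0.09 in WT (SD, n = 4), -0.77 ± 0.17 in Slc29a3-/- and -1.48 ± 0.57 in Slc29a3-/- Tlr7-/-. The synthesis mean itself was 4.31 ± 0.10, 4.30 ± 0.18 and 4.495 ± 0.27, and the efflux mean 5.98 ± 0.08, 5.07 ± 0.34 and 5.98 ± 0.34. The WT range of the difference, -1.77 to -1.58, lay below the Slc29a3-/- range, -0.89 to -0.53, and the Slc29a3-/- Tlr7-/- libraries spread from -2.25 to -0.94. In Ly6Clow libraries the difference was -3.57 ± 0.27, -3.38 ± 0.19 and -3.41 ± 0.16, and the 3 ranges overlapped. The receptor genes Nr1h2 and Nr1h3, which encode transcription factors, were left out of this efflux mean. With all 5 efflux genes, a choice made after the data were seen, the Ly6Chi difference was -1.098 ± 0.15 in WT, -0.65 ± 0.16 in Slc29a3-/- and -1.06 ± 0.33 in Slc29a3-/- Tlr7-/-, so the distance between Slc29a3-/- and WT was smaller, and the WT range, -1.28 to -0.95, still lay below that of Slc29a3-/-, -0.81 to -0.43. With Abca1 and Abcg1 alone it was -1.58 ± 0.18, -0.85 ± 0.27 and -1.44 ± 0.63. These are descriptions, and no test was made of a score over members.

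**Figure D3:**
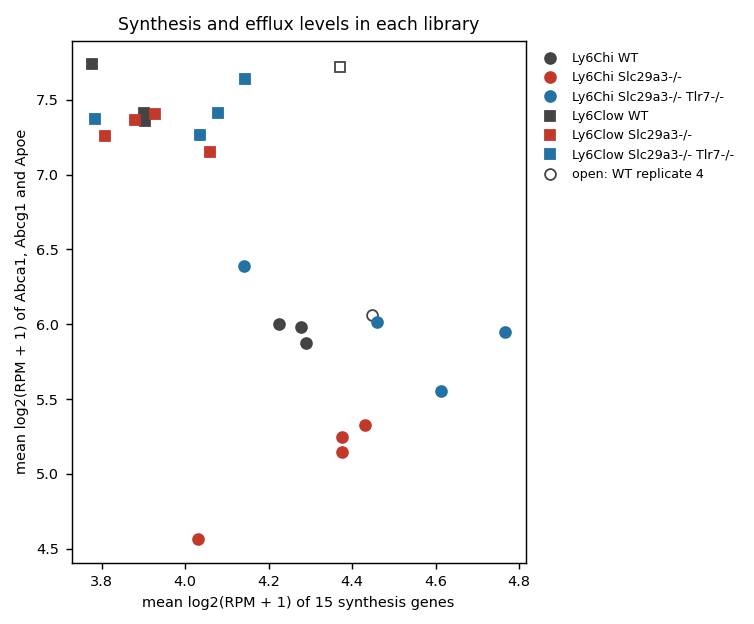
Mean log2(RPM + 1) of the 15 synthesis genes (horizontal axis) against that of Abca1, Abcg1 and Apoe (vertical axis), 1 point per library, circles for Ly6Chi and squares for Ly6Clow, colour for genotype and open symbols for WT replicate 4. The Ly6Clow libraries lie at an efflux mean of 7.15 to 7.74, and the Ly6Chi Slc29a3-/- libraries at 4.57 to 5.33 are the lowest of the 24.

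In Ly6Clow monocytes the efflux pattern of the Ly6Chi subset was not called. Between Slc29a3-/- and WT 0 of 28 members were called by limma, where 4.43% of all genes were, and 4 had an unadjusted P under 0.05: Apoe, Nr1h3, Srebf2 and Nsdhl. Abca1 was at 80.2, 90.0, 80.3 and 114 RPM in WT and at 96.1, 60.1, 85.6 and 84.5 RPM in Slc29a3-/-, overlapping ranges with a log2 difference of -0.16 (95% interval -0.55 to 0.22). Apoe was at 207, 390, 207 and 232 RPM in WT, 161, 150, 174 and 133 RPM in Slc29a3-/- and 191, 187, 230 and 104 RPM in Slc29a3-/- Tlr7-/-. All 4 Slc29a3-/- libraries were below all WT libraries, and the log2 difference of -0.69 (SE 0.24, adjusted P = 0.12) missed the threshold. Fitting the 2 groups alone gave an adjusted P of 0.043 for it. Abcg1 differed by 0.07 on the log2 scale (95% interval -0.29 to 0.43).

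Nr1h3, the gene of LXRα (chr2:91184061-91202834), was the efflux gene called in Ly6Clow monocytes. It was at 36.3, 31.98, 38.7 and 25.5 RPM in WT, 35.9, 74.1, 56.1 and 79.1 RPM in Slc29a3-/-, and 19.2, 29.4, 20.9 and 26.05 RPM in Slc29a3-/- Tlr7-/-. Every Slc29a3-/- library was above every Slc29a3-/- Tlr7-/- library, while its replicate 1 lay within the WT range. Nr1h3 was 2.43-fold higher in Slc29a3-/- than in Slc29a3-/- Tlr7-/- (log2 fold change 1.28, SE 0.24, adjusted P = 0.011), the 1 member of 28 called where 1.93% of all genes were. The call was lost without Ly6Clow Slc29a3-/- replicate 2 or replicate 4, where the log2 fold change was still at least 1.14. Against WT it was 0.82 (SE 0.24, adjusted P = 0.068). The summed level of 9 red pulp macrophage genes was 521 to 602 RPM in Ly6Clow WT, 589 to 989 RPM in Slc29a3-/- and 293 to 1603 RPM in Slc29a3-/- Tlr7-/-, that of 4 erythroid genes 2.39 to 5.83, 35.2 to 42.1 and 0.97 to 6.16 RPM. Between Slc29a3-/- and Slc29a3-/- Tlr7-/- the red pulp genes C1qb (log2 fold change 1.57, adjusted P = 0.036) and Spic (1.39, adjusted P = 0.016) were higher and Mrc1 (-1.44, adjusted P = 0.034) lower, so 3 of 7 tested were called. In the same comparison 2 of 3 erythroid genes were called higher and 4 of 5 genes of conventional dendritic cells lower. The part of these cell types in the result was not tested.

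Srebf2 (chr15:82147181-82205379) was the member called between Ly6Clow Slc29a3-/- Tlr7-/- and WT, 1 of 28 where 8.31% of all genes were called (235 higher and 622 lower, or 396 and 511 after TMM scaling). WT libraries held 79.5, 54.0, 75.1 and 171 RPM, Slc29a3-/- libraries 139, 132, 146 and 119 RPM, and Slc29a3-/- Tlr7-/- libraries 180, 150, 204 and 157 RPM. WT replicate 4 was within the range of the double mutant, and the other 3 WT libraries were below all mutant libraries. The log2 fold change was 0.98 (SE 0.26, adjusted P = 0.038), it was 0.008 against WT replicate 4 alone, and the call was lost under 8 of 18 alternative settings. The sum of 11 immediate early genes was 1148 to 14898 RPM in Ly6Clow WT, 1122 to 1344 RPM in Slc29a3-/- and 979 to 3263 RPM in Slc29a3-/- Tlr7-/-. Between the double mutant and WT, 5 of 10 immediate early, 9 of 10 neutrophil and 3 of 3 NK cell genes tested were called lower, and their part in the Srebf2 result was not tested. The median log2 difference of the synthesis genes in this comparison was 0.04, beside -0.10 over all genes.

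More members were called between the subsets than between genotypes, as was the case over all genes, and the efflux arm held many of them. All 5 efflux genes were lower in Ly6Chi than in Ly6Clow monocytes of WT mice, and of Slc29a3-/- mice (where Nr1h2 was not called after TMM or RLE scaling), and 3 of 5 in Slc29a3-/- Tlr7-/- mice. In the 3 genotypes 10, 13 and 10 of 28 members were called, where 25.9%, 35% and 28.3% of all genes were, beside 35.7%, 46.4% and 35.7% of members. In Slc29a3-/- Tlr7-/- the member count was 8 of 28 after TMM or RLE scaling, where 28% and 28.2% of all genes were called. No difference from the background is read from the member counts in any genotype. The median log2 difference of the 5 efflux genes was -1.56, -1.95 and -1.36, beside 0.07, -0.10 and 0.12 over all genes. That of the synthesis genes was 0.29, 0.22 and 0.39. The sort used no member of either arm.

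In WT, Apoe was 3.5-fold lower in Ly6Chi than in Ly6Clow monocytes (log2 difference -1.81, SE 0.22, limma adjusted P = 6e-07). Abca1 was 2.99-fold lower (-1.58, SE 0.24, adjusted P = 1.8e-05), at 26.9 to 32.6 against 80.2 to 114 RPM. Abcg1 was 2.55-fold lower (-1.35, adjusted P = 1.7e-06), at 107 to 119 against 261 to 348 RPM. In each of these 3 genes the WT subsets did not overlap. The receptor genes had the same direction, Nr1h3 by -1.56 (adjusted P = 2.6e-05) and Nr1h2 by -0.80 (adjusted P = 0.0017) on the log2 scale. Mylip, a target of the same receptors, was 2.20-fold lower (-1.14, adjusted P = 1.9e-06), at 35.5 to 41.9 against 79.2 to 94.3 RPM. With WT replicate 4 as the WT library of each subset 3 members remained called, all lower in Ly6Chi, namely Abca1, Abcg1 and Mylip.

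In the mutants the same export genes differed between subsets, and whether a difference depended on genotype is tested further on. Abca1 was 6.10-fold lower in Ly6Chi than in Ly6Clow Slc29a3-/- monocytes (-2.61, SE 0.24, adjusted P = 3.8e-09) and 3.06-fold lower in Slc29a3-/- Tlr7-/- monocytes (-1.61, adjusted P = 1.2e-05). Apoe was 5.17-fold lower in Slc29a3-/- (-2.37, SE 0.22, adjusted P = 3.1e-09) and 2.57-fold lower in Slc29a3-/- Tlr7-/- (-1.36, adjusted P = 2.8e-05). Nr1h3 was 3.85-fold lower in Slc29a3-/- (-1.95, adjusted P = 5.7e-07) and was not called in Slc29a3-/- Tlr7-/- (-0.52, adjusted P = 0.12). Abcg1 and Mylip were called lower in all 3 genotypes. Srebf2 was lower in Ly6Chi in both mutants (-0.87 and -0.83, adjusted P = 0.008 and 0.015) and was not called in WT (0.08, 95% interval -0.45 to 0.61).

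Of the 15 synthesis genes 26.7%, 40% and 26.7% were called between the subsets of WT, Slc29a3-/- and Slc29a3-/- Tlr7-/- mice, shares near the 25.9%, 35% and 28.3% of all genes. Those called were, with the exception of Lss, higher in Ly6Chi, where all genes called split into 1929 higher and 934 lower in WT, 1827 and 2042 in Slc29a3-/-, and 2063 and 1064 in Slc29a3-/- Tlr7-/-. Mvd, the decarboxylase of the mevalonate pathway, was higher in each genotype: 34.5, 43.2, 36.6 and 39.5 RPM in Ly6Chi WT libraries against 16.2, 16.2, 14.5 and 12.4 RPM in Ly6Clow WT libraries, a 2.50-fold difference (log2 1.32, SE 0.27, adjusted P = 5e-04). It was 1.97-fold higher in Slc29a3-/- (0.98, adjusted P = 0.0052) and 2.60-fold higher in Slc29a3-/- Tlr7-/- (1.38, adjusted P = 0.00029). Fdft1, squalene synthase, was also called in each, by 0.61, 1.04 and 1.04 on the log2 scale (adjusted P = 0.041, 0.00055 and 0.00079), although the WT call was lost under 11 of 17 alternative settings, TMM and RLE scaling among them. Sc5d was called in WT (0.68, adjusted P = 0.01) and Slc29a3-/- (0.90, adjusted P = 0.00065), Tm7sf2, a sterol reductase, in WT (0.86, adjusted P = 0.019) and Slc29a3-/- Tlr7-/- (0.99, adjusted P = 0.007). Hsd17b7 was called in both mutants (1.25 and 1.12, adjusted P = 0.02 and 0.044), at values as low as 0.32 RPM in Ly6Clow Slc29a3-/- Tlr7-/- libraries and with the Slc29a3-/- Tlr7-/- call lost after TMM or RLE scaling, and Pmvk, phosphomevalonate kinase, in Slc29a3-/- (0.66, adjusted P = 0.02). Lss went the other way in Slc29a3-/- (-0.91, adjusted P = 0.017). The summed level of 16 proliferation genes was 635 to 3566 RPM over the Ly6Chi and 227 to 338 RPM over the Ly6Clow libraries, and that of 13 neutrophil genes 14160 to 144189 RPM and 11.4 to 2598 RPM. Their part in the subset differences was not tested.

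Of the rest, Hmgcs1, Mvk, Sqle, Cyp51, Msmo1, Nsdhl, Ebp and Dhcr7 were not called between subsets in any genotype. Hmgcs1 was at 34.8 to 83.2 RPM in Ly6Chi and 21.5 to 76.1 RPM in Ly6Clow libraries. Ebp, the sterol isomerase, was at 49.2 to 95.1 and 39.7 to 86.8 RPM. Cyp51, which demethylates lanosterol, was at 11.9 to 35.4 and 12.9 to 25.1 RPM. The early kinase gene Mvk was at 1.39 to 4.30 and 0.686 to 3.73 RPM. Msmo1 and Nsdhl, which remove the methyl groups at the sterol ring, were at 14.9 to 35.9 and 4.94 to 24.9 RPM (Msmo1) and at 24.7 to 40.4 and 21.0 to 47.2 RPM (Nsdhl). Sqle, squalene epoxidase, was at 6.75 to 43.4 and 10.8 to 29.7 RPM, and Dhcr7 at 23.6 to 38.7 and 15.3 to 41.2 RPM. Soat1 was called higher in Ly6Chi in Slc29a3-/- Tlr7-/- (0.65, adjusted P = 0.008), a call lost after TMM or RLE scaling.

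**Figure D4:**
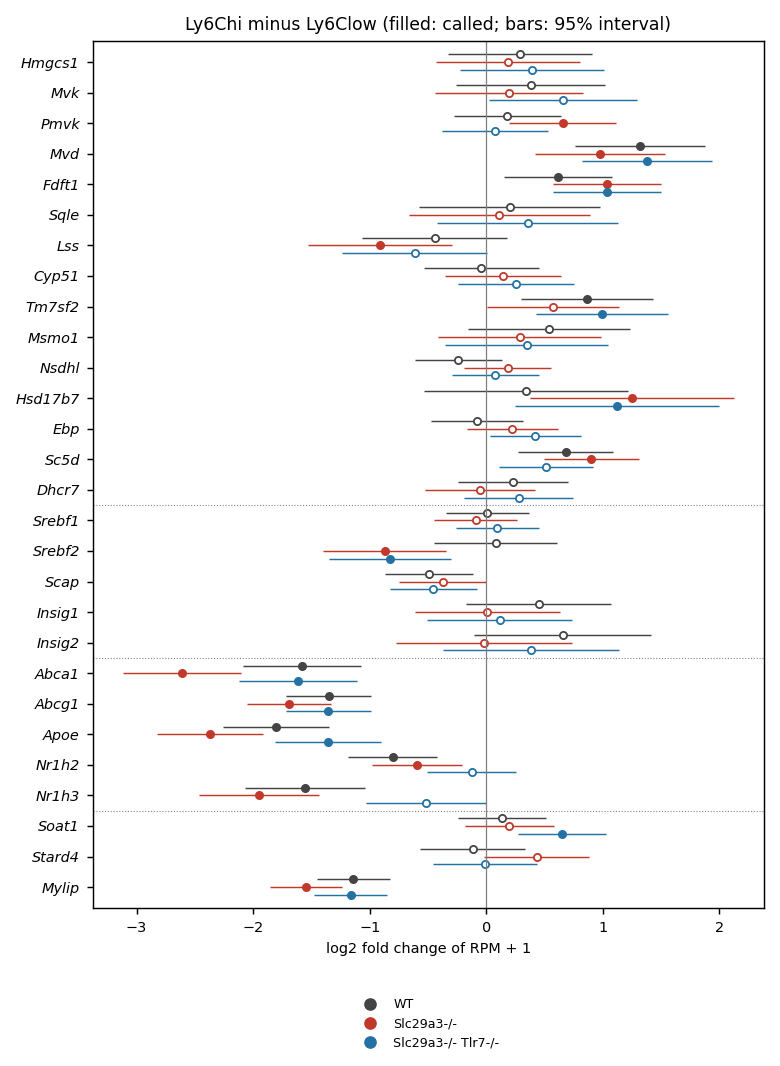
Log2 fold change of RPM + 1 between Ly6Chi and Ly6Clow monocytes (horizontal axis, above 0 is higher in Ly6Chi) for the 28 members (rows, grouped by dotted lines) in each genotype (colour), with 95% intervals and filled points where called. Abca1, Abcg1, Apoe and Mylip lie below 0 in all 3 genotypes and are filled, and Mvd and Fdft1 lie above 0 and are filled.

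An interaction term asked whether the genotype difference depended on the subset. For Slc29a3-/- against WT, 0 of 28 members were called by limma where 8.76% of all genes were (454 higher and 513 lower, or 598 and 394 after TMM scaling, with a median of -0.15 or -0.03), and 2 had an unadjusted P under 0.05: Abca1 (Ly6Chi difference minus Ly6Clow difference -1.03, SE 0.35, adjusted P = 0.065), and Srebf2 (-0.95, SE 0.36, adjusted P = 0.11; 0.041 with replicate number as a block). For Slc29a3-/- against Slc29a3-/- Tlr7-/-, 2 of 28 were called where 8.94% of all genes were (500 higher and 487 lower, or 663 and 302 after TMM scaling, with a median of -0.20 or -0.05). These were Nr1h3 (-1.43, SE 0.35, adjusted P = 0.012), kept under each of 23 alternative settings, and Apoe (-1.01, SE 0.31, adjusted P = 0.043), lost under 16 of the 23. Nr1h3 thus differed by -0.15 in Ly6Chi and by 1.28 in Ly6Clow monocytes, and Apoe by -1.16 and -0.15. Abca1 had a value near that of Apoe (-0.997, SE 0.35, adjusted P = 0.073) and missed the threshold.

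Genes around the members, from 7 fixed lists, were counted in the same fits, and the shares of all genes called given above are the background for their counts: in Ly6Chi Slc29a3-/- against WT that was 22.4%, with 1507 of 2368 calls lower. In Ly6Chi Slc29a3-/- against WT, 3 of 8 other LXR targets and partners were called, all lower, among them Arl4c (log2 fold change -1.58, adjusted P = 0.00096) and Rxra, the partner receptor of LXR (-0.95, adjusted P = 0.0011). Other lists had calls toward lower values only: oxysterol genes, with Gpr183, a receptor for an oxysterol (-1.22, adjusted P = 0.0024), as 1 of 2 tested, and lipid uptake, with Lpl, lipoprotein lipase (-1.30, adjusted P = 0.0087), and Lrp1, which takes up apolipoprotein E particles (-0.82, adjusted P = 0.0093), as 2 of 6. Npc2, which hands cholesterol out of the lysosome, was lower (-0.85, adjusted P = 0.0046) and Nceh1, which hydrolyses cholesterol ester, higher (0.65, adjusted P = 0.0047). They were 2 of 6 genes on the list named endosomal and lysosomal cholesterol, which does not give the location of each protein. Of 11 fatty acid synthesis genes 1 was higher, Scd2 (0.73, adjusted P = 0.044), and 1 lower. Ggps1 (-0.60, adjusted P = 0.02) was 1 of 8 in the isoprenoid branch and Gramd1a (-0.79, adjusted P = 0.0052) 1 of 6 sterol transport genes.

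Against Slc29a3-/- Tlr7-/- in the same subset, 2 of 8 LXR genes (Rxra -0.64, adjusted P = 0.014, and Smpdl3a -0.62, adjusted P = 0.016), Gpr183 (-1.23, adjusted P = 0.0025) and Cyp27a1, which makes 27-hydroxycholesterol (-1.15, adjusted P = 0.0065), Lpl (-1.12, adjusted P = 0.024), Lrp1 (-1.03, adjusted P = 0.003) and Npc2 (-0.98, adjusted P = 0.0022) were lower, and no fatty acid, isoprenoid or sterol transport gene was called. Both comparisons share the Slc29a3-/- libraries. Between Slc29a3-/- Tlr7-/- and WT Ly6Chi monocytes the 1 call was Acly, ATP citrate lyase, which makes cytosolic acetyl-CoA (0.75, adjusted P = 0.047).

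In Ly6Clow monocytes Scd1, the stearoyl-CoA desaturase, was lower than in WT in Slc29a3-/- (-2.15, adjusted P = 0.00087) and in Slc29a3-/- Tlr7-/- (-1.68, adjusted P = 0.0091), as was Arl4c (-1.68, adjusted P = 0.0037, and -1.71, adjusted P = 0.0064); these comparisons share the WT libraries. Cd36, a scavenger receptor for lipids, was lower in Slc29a3-/- than in WT (-1.47, adjusted P = 0.0057) and than in Slc29a3-/- Tlr7-/- (-1.23, adjusted P = 0.021). Cyp27a1 was higher in Slc29a3-/- Tlr7-/- than in WT (1.49, adjusted P = 0.025) and Gpam, which starts glycerolipid synthesis, lower (-1.06, adjusted P = 0.016). Gpr183, outside the naming rule here since its Ly6Clow group means were under 10 RPM (6.61 in WT, 1.85 in Slc29a3-/- and 3.24 in Slc29a3-/- Tlr7-/-) and named after its values were seen, was lower than in WT in both mutants (-1.42, adjusted P = 0.0067, and -0.89, adjusted P = 0.048). Pltp, the phospholipid transfer protein, was higher in Slc29a3-/- than in Slc29a3-/- Tlr7-/- (0.80, adjusted P = 0.044).

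In the interaction against WT, 3 of 8 other LXR genes were called lower, among them Rxra (-1.001, adjusted P = 0.016) and Pltp (-1.03, adjusted P = 0.029). There 2 of 6 genes on the endosomal and lysosomal list were also lower, Npc2 (-0.96, adjusted P = 0.037) and Lipa, lysosomal acid lipase (-1.198, adjusted P = 0.048). Scd1 was higher (1.71, adjusted P = 0.033), a gene at 1.18 RPM or less in the Ly6Chi group means. In that against Slc29a3-/- Tlr7-/- 3 of 8 LXR genes were called lower, with Rxra at -0.99 (adjusted P = 0.018) and Pltp at -0.97 (adjusted P = 0.042). Of 6 sterol transport genes 2 were higher in the interaction against Slc29a3-/- Tlr7-/-, Gramd1b (0.89, adjusted P = 0.013) and Osbpl2 (0.72, adjusted P = 0.042). Both interactions share the Slc29a3-/- libraries. Of all genes, 8.76% were called in the interaction against WT and 8.94% in that against Slc29a3-/- Tlr7-/-.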

How the data were processed

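Total RNA (1 ng per library, RIN above 7.3) of FACS-sorted splenic monocytes was amplified with the Ion AmpliSeq Transcriptome Mouse kit, 1 amplicon per gene. The authors deposited a table of RPM, reads of an amplicon scaled to the library total (mm10), 24 libraries, with 0 written as 0.0001. Of the amplicon rows, 27 had gene names turned into dates. The members and lists were chosen with earlier results of these data known. Samples were grouped by the labelled subset and genotype.

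Values were tested as log2(RPM + 1) with limma 3.58.1 (R 4.3.3, intensity trend) and Benjamini-Hochberg adjustment over all genes that reached 1 RPM in 4 or more libraries: 10561 in Ly6Chi, 10317 in Ly6Clow and 11042 in 24 libraries. Genotypes were compared within a subset (12 libraries), and subsets and interactions in 1 fit of 24. A call needs an adjusted P under 0.05 and a fold above 1.5, with 95% intervals from the same fit. All members and, per other list, at most 4 called genes with a mean of at least 10 RPM (largest change first) are named. The fit was checked on simulated data.

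Same-numbered replicates of different genotypes did not deviate together (correlations of -0.21 to 0.16 over genes), nor did all subset pairs of the mutants (-0.50 to 0.37). For WT all 4 subset pairs did (0.26 to 0.61), but only 2 of the 4 Ly6Chi libraries correlated best with their own number. WT replicate 4 stood apart in both subsets, which alone makes such deviations correlate, so these values cannot show whether the WT libraries are paired. With replicate number as a block, 10 members were called between the WT subsets.

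Alternatives were TMM and RLE scaling, other filters, pseudocounts and fits, the replicate block, and leaving out libraries.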

Additional observations from a re-analysis of the deposited data

Results flagged for a closer look

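In 2 results the genotype difference itself differed between the subsets by an interaction test in limma. Between Slc29a3-/- and Slc29a3-/- Tlr7-/- monocytes, the Ly6Chi difference minus the Ly6Clow difference was -1.43 on the log2 scale for Nr1h3 and -1.01 for Apoe. The Nr1h3 call was kept under each of 23 alternative settings, and the Apoe call was lost under 16 of the 23, TMM and RLE scaling among them.

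A library far from the other 3 of its group was found in 9 of 168 gene and group combinations, where chance at 1 in 20 gives 8.4. Ly6Chi WT replicate 4 was that library for Insig1 (34.6 RPM against 68.1 to 77.3), Apoe (94.3 RPM against 63.7 to 64.6), Soat1 (168.8 RPM against 126.5 to 132.8) and Scap (17.1 RPM against 23.7 to 25.2). Ly6Chi Slc29a3-/- replicate 4 was low for Hmgcs1 (42.9 RPM against 57.5 to 60.2) and Mylip (30.2 RPM against 36.1 to 37.4), and replicate 2 for Tm7sf2 (3.48 RPM against 6.05 to 6.35). Abcg1 was high in Ly6Chi Slc29a3-/- Tlr7-/- replicate 2 (161.2 RPM against 112.6 to 116.7), and Nsdhl in Ly6Clow Slc29a3-/- Tlr7-/- replicate 4 (42.4 RPM against 26.5 to 28.6).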

How the results depend on the processing

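No called member changed sign under any alternative. Counts of members called that moved by over 1.5 times were as follows, and where no reason is given the cause was not tested. With WT replicate 4 as the WT library, which leaves 1 WT sample assumed to vary like the other groups, Ly6Chi Slc29a3-/- against WT went from 4 to 1 (Apoe), Ly6Clow Slc29a3-/- Tlr7-/- against WT from 1 to 0, and the WT subset comparison from 10 to 3. The study's thresholds (unadjusted P) gave 1 in Ly6Chi and 2 in Ly6Clow Slc29a3-/- Tlr7-/- against WT, 3 in Ly6Clow Slc29a3-/- against WT, 2 in Ly6Clow Slc29a3-/- against Slc29a3-/- Tlr7-/-, and 2 in the interaction against WT. Fitting the 2 groups alone gave 2 in Ly6Clow Slc29a3-/- and 0 in Slc29a3-/- Tlr7-/- against WT, and 1 fit of 24 libraries gave 1 in the former. Ly6Clow Slc29a3-/- Tlr7-/- against WT had 2 calls with RLE scaling and 0 without a filter. The interaction against Slc29a3-/- Tlr7-/- had 1 with TMM, RLE, no filter, a pseudocount of 0.1 or no trend.

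Leaving out 1 library at a time gave 4 throughout in Ly6Chi Slc29a3-/- against WT, 0 to 2 in Ly6Chi Slc29a3-/- Tlr7-/- against WT, 2 to 4 in Ly6Chi Slc29a3-/- against Slc29a3-/- Tlr7-/-, 0 to 2 in Ly6Clow Slc29a3-/- and in Slc29a3-/- Tlr7-/- against WT, 0 to 1 in Ly6Clow Slc29a3-/- against Slc29a3-/- Tlr7-/-, 8 to 10, 9 to 14 and 9 to 11 between the subsets of WT, Slc29a3-/- and Slc29a3-/- Tlr7-/-, 0 to 2 in the interaction against WT and 1 to 3 in the other. With replicate number as a block, the genotypes being unpaired, Ly6Clow Slc29a3-/- Tlr7-/- against WT had 0 calls and the interaction against WT 1 (Srebf2). Without WT replicate 4, Insig1 (-0.81, adjusted P = 0.039) and Stard4 (0.90, adjusted P = 0.0092) were called in Ly6Chi Slc29a3-/- Tlr7-/- against WT, and Insig1 (-0.93) and Srebf2 (0.95) in Ly6Clow Slc29a3-/- against WT. With WT replicate 4 alone, all genes called in Ly6Chi Slc29a3-/- against WT went from 2368 to 156. Count tests (edgeR, DESeq2) were not run, since the values are RPM, and a fit of the enzymes without Acat2 would be the same fit.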
